A study of Mus musculus with 9 samples.

Results

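The Myc, Max and Mxd network is a set of 10 mouse genes, *Myc*, *Mycn*, *Mycl*, *Max*, *Mga*, *Mxd1*, *Mxd3*, *Mxd4*, *Mxi1* and *Mnt*, which were found in the gene count table by the Ensembl identifiers of these symbols. All 10 were present among 54232 rows and all 10 passed the low-count filter of every comparison. RNA-seq of poly(A) RNA had been made from mouse pluripotent cells of the C57 × CBA background that carry a GFP reporter under the distal *Oct4* promoter (OG2). Naïve mESCs, embryonic stem cells of the pre-implantation type kept in serum with LIF (S/L), were sampled at passage P5 and P15, and primed mEpiSCs, cells of the post-implantation epiblast type converted from these mESCs with bFGF and Activin A (F/A), were sampled at the same passages, with 2 libraries in each of the 4 groups. The cells of all 8 libraries were grown on mouse embryonic fibroblast (MEF) feeders arrested with mitomycin C, and a single MEF library was sequenced without replicate. The labels do not say whether the 2 libraries of a group came from separate cultures, so that p-values measure the spread between these libraries, which may be technical. In bulk RNA, fewer cells of a type and less RNA per cell cannot be told apart.

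The network works through the small protein Max, which pairs with many partners and brings them to the E-box CACGTG in DNA. The activators c-Myc, N-Myc and L-Myc, encoded by *Myc*, *Mycn* and *Mycl*, raise the transcription of genes for ribosome production, metabolism and growth when bound to Max. Mxd1, Mxi1, Mxd3, Mxd4 and Mnt compete with them for Max and repress through the Sin3 and histone deacetylase complex, whereas Mga brings Max into a Polycomb-type complex known for silencing germline genes in embryonic stem cells. Myc proteins are also known in mouse embryonic stem cells for supporting self-renewal downstream of LIF.

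Total counts ran from 14378051 to 20985136 in the 8 pluripotent libraries, and the MEF library held 25646547. Levels were expressed as CPM, the counts of a gene per 1000000 counts of its library, with library totals scaled by TMM, a method that sets the typical gene equal across libraries, and as CPM per kb of exon wherever genes were compared with each other. Comparisons used edgeR's quasi-likelihood test, and a gene was called at a Benjamini-Hochberg adjusted p under 0.01 over all genes tested. The labels were checked with state markers. *Zfp42* was at 209.7 ± 4.70 CPM (SD, n = 2) in naïve and 17.3 ± 0.438 in primed cells at P5, and *Fgf5*, a marker of the primed epiblast, at 1.54 ± 0.135 and 120.5 ± 0.163. At P15 *Esrrb* was at 464.1 ± 3.08 CPM in naïve and 4.06 ± 0.756 in primed cells, and *Otx2* at 11.4 ± 1.43 and 78.9 ± 0.406. The summed level of 30 fibroblast markers, 83481 CPM in MEFs, was 10010 and 10069 CPM in naïve and 6218 to 6359 CPM in primed cells at P5, and 14747 to 17397 CPM over both states at P15. None of the 30 was at 0 counts in any pluripotent library. The ratio of a marker to its MEF level had a median of 14.6% to 25.4% per library, and ran from 0.67% for *Fbln5* to 3.54 times the MEF level for *Dcn*, both in primed cells. For *Mycn*, *Myc*, *Max*, *Mnt*, *Mxd3* and *Mxd4*, the share that RNA of MEF composition would make up is given beside the result. Such RNA would add to every marker, so it cannot exceed the lowest marker ratio of a library, and the median ratio overstates it. Feeder RNA of another composition is not bounded in this way.

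**Figure D1:**
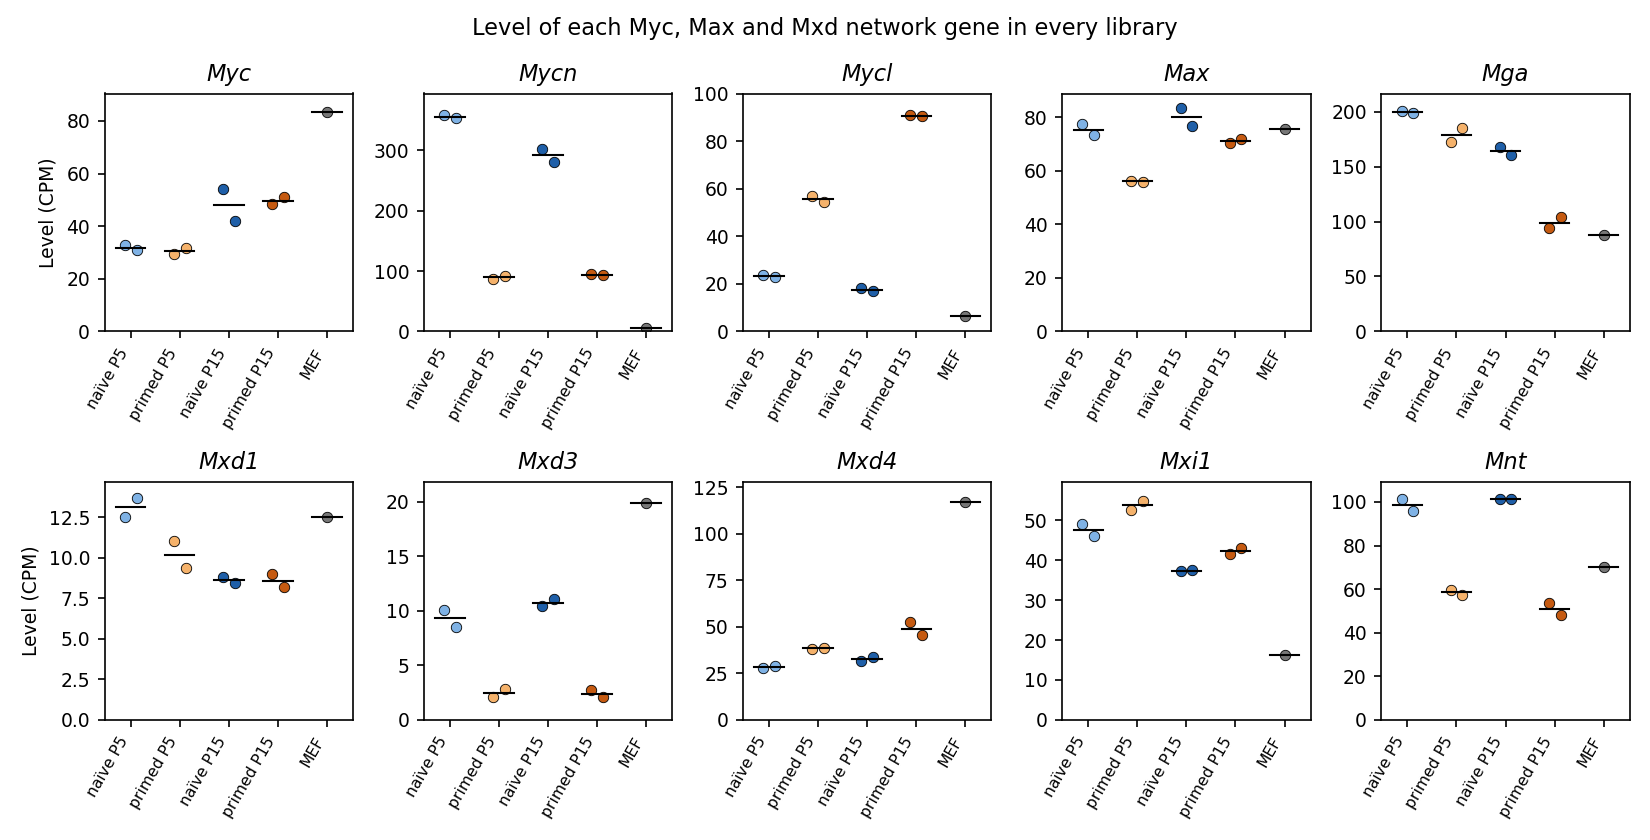
Level in CPM (vertical axis, a scale of its own per gene) of each network gene in every library, by group (horizontal axis). Points are libraries, 2 per group and 1 for MEFs, and lines are group means. *Mycn* fell from 356 to 89.4 CPM and *Mycl* rose from 23.4 to 55.6 CPM between naïve and primed cells at P5, while the *Myc* points of both states overlapped at each passage.

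*Mycn* and *Mycl* showed the largest opposite differences between the states among the activators, and their RefSeq promoters (GRCm38.p6, 250 bases before to 50 after the start of transcription, gene strand, 5′ to 3′) are shown for that reason. Of the 10 members, 9 (all but *Myc*) had a promoter in the table used here, with 11 promoters in all. In the *Mycn* promoter (chr12:12941787-12942086, minus strand) capitals mark a match to the E2F-type sequence TTTGGCGC on either strand, a motif chosen after the sequence was read. The *Mycl* promoter (chr4:122995681-122995980, plus strand) held no match to any motif searched.
*Mycn* promoter: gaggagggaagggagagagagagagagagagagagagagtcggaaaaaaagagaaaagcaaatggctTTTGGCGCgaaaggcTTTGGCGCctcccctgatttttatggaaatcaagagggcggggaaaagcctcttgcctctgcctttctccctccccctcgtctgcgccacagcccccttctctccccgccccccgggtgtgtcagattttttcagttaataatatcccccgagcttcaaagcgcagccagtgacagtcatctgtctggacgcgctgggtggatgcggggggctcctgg
*Mycl* promoter: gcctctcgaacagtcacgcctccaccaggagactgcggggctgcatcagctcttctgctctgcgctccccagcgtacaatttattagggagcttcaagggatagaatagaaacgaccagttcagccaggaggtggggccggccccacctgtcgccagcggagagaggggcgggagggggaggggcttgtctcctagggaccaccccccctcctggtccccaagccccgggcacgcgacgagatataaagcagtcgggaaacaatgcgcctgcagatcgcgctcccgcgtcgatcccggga
The *Mycn* promoter held 2 matches to TTTGGCGC, starting 183 and 168 bases before the start of transcription, and 0.514% of all 32851 promoters of this length held at least 1. The STAT-type motif TTCNNNGAA, searched because LIF signals through Stat3, was in 8.3% of all promoters and in none of the 11 of the network. A match is only a match of letters, and the absence of letters from this window says nothing about binding.

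Primed mEpiSCs were compared with naïve mESCs at P5 first. Of the 10 members, 8 were called, 3 higher and 5 lower in primed cells, when 62.3% of all 16482 genes tested were called. The 3 past a fold of 2 were *Mycn*, *Mxd3* and *Mycl*, against 22.3% of all genes. Libraries of both states did not overlap for 9 of the 10, against 84.6% of all genes tested. The median log2 fold change was -0.23 over the members and 0.01 over all genes tested. At P15, 6 members were called, 2 higher and 4 lower, with a background of 56.6%, and 4 of them passed a fold of 2, with a background of 23.2%. Libraries did not overlap for 8 members, against 81.9% of all genes, and the median was -0.10 over the members and 0.00 over all genes. With so many genes called in both comparisons, the counts alone do not set the network apart, and the following values describe its genes one by one. Scaled by library size alone, the median of all genes moved to 0.21 at P5 and to 0.10 at P15, and the split of all calls at P5 moved from 5147 higher and 5128 lower to 6808 and 3550.

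**Figure D2:**
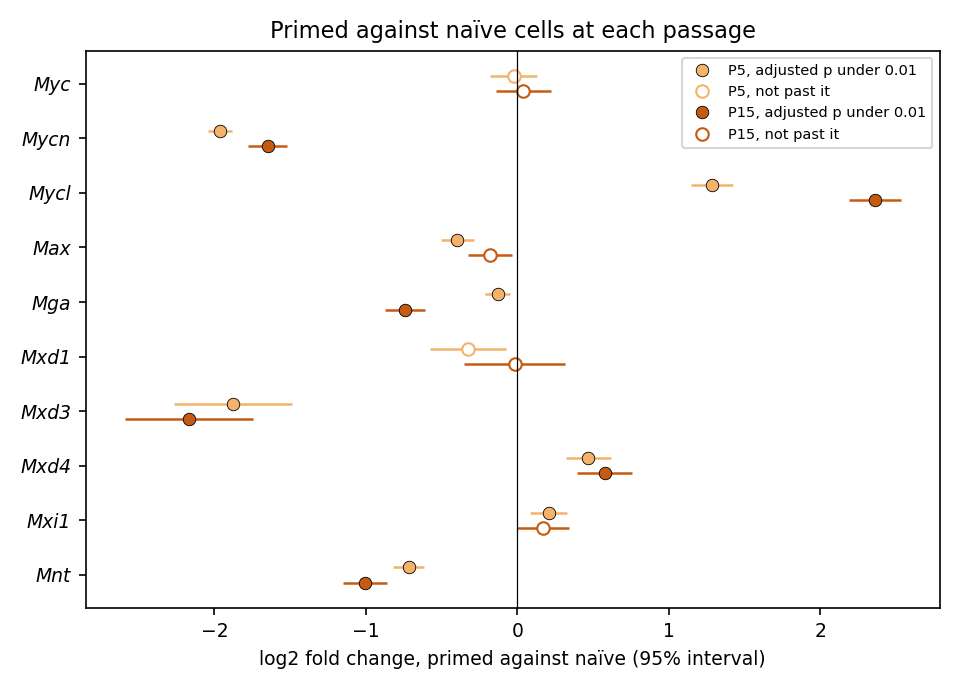
log2 fold change of primed against naïve cells (horizontal axis) for each network gene (vertical axis), at P5 (light) and P15 (dark). Points are edgeR estimates from 2 libraries per state, bars 95% intervals, and filled points have an adjusted p under 0.01. *Mycn*, *Mxd3* and *Mnt* lie to the left at both passages, *Mycl* and *Mxd4* to the right, and the *Myc* intervals cover 0.

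*Mycn* (ENSMUSG00000037169, chr12:12936093-12941914, minus strand, GRCm38), which encodes N-Myc, was the most abundant activator transcript of naïve cells. It was at 358 and 354 CPM in the naïve libraries at P5 and at 87.2 and 91.6 CPM in the primed ones. At P15 it was at 303 and 281 CPM in naïve and at 94.5 and 93.0 CPM in primed cells, and MEFs had 5.61 CPM. Every naïve library thus stood far above every primed library. The fold change was -1.96 ± 0.04 on the log2 scale (SE, 3.90-fold lower in primed cells, adjusted p = 1.34e-26, edgeR) at P5 and -1.65 ± 0.06 (3.14-fold lower, adjusted p = 4.08e-23) at P15. RNA of MEF composition, scaled by the median marker ratio, would make up at most 1.54% of *Mycn* in any library.

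*Mycl* (ENSMUSG00000028654, chr4:122995652-123002485, plus strand), which encodes L-Myc, ran the other way. Naïve libraries had 23.7 and 23.1 CPM at P5 and 18.0 and 17.1 CPM at P15. Primed libraries had 56.7 and 54.5 CPM at P5 and 91.1 and 90.4 CPM at P15, with 6.63 CPM in MEFs. The 4 primed libraries all lay above the 4 naïve ones, and those of P15 lay highest. *Mycl* rose 2.44-fold in primed cells at P5 (log2 1.28 ± 0.07, adjusted p = 2.67e-16, edgeR) and 5.13-fold at P15 (2.36 ± 0.09, adjusted p = 7.89e-24).

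*Myc* (ENSMUSG00000022346, chr15:61985391-61990374, plus strand), which encodes c-Myc, differed between the passages, while no difference between the states was detected. Libraries at P5 had 32.8 and 30.9 CPM in naïve and 29.6 and 31.8 CPM in primed cells. At P15 the naïve libraries had 54.3 and 42.0 CPM and the primed ones 48.3 and 51.1 CPM, below the 83.4 CPM of MEFs. The states overlapped at each passage. The primed to naïve difference was -0.02 on the log2 scale at P5 (95% interval -0.18 to 0.13, adjusted p = 0.792, edgeR) and 0.04 at P15 (-0.14 to 0.22, adjusted p = 0.712). Its sign changed at P5 with library size alone (0.18) and without primed P5 replicate 1 (0.05), and at P15 without naïve P15 replicate 2 (-0.16), and at both passages with the MEF profile subtracted (0.06 and -0.06). RNA of MEF composition would make up 1.76% to 12.5% of *Myc* by the lowest marker ratio of each library and 28.7% to 45.8% by the median ratio, and its part in these values was not tested.

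Per kb of exon, the makeup of the Myc family could be compared within a library. *Mycn* made up 85.8% and 86.3% of the summed family level in the naïve libraries at P5, and 51.5% and 52.4% in the primed ones. At P15 the share was 79.0% and 81.2% in naïve and 41.5% and 40.7% in primed cells. In MEFs *Myc* made up 90.2% and *Mycn* 5.002%. *Mycl* rose from 3.84% to 4.63% of the family over the naïve libraries to 25.5% to 32.7% over the primed ones. The summed family level was 126.6 and 124.6 CPM per kb in naïve and 51.4 and 53.0 in primed cells at P5. At P15 the sum was 116.3 and 105.0 CPM per kb in naïve and 69.0 and 69.4 in primed cells, and 34.1 in MEFs. Every primed library was below every naïve one in both the *Mycn* share and the sum, on which no test was run.

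**Figure D3:**
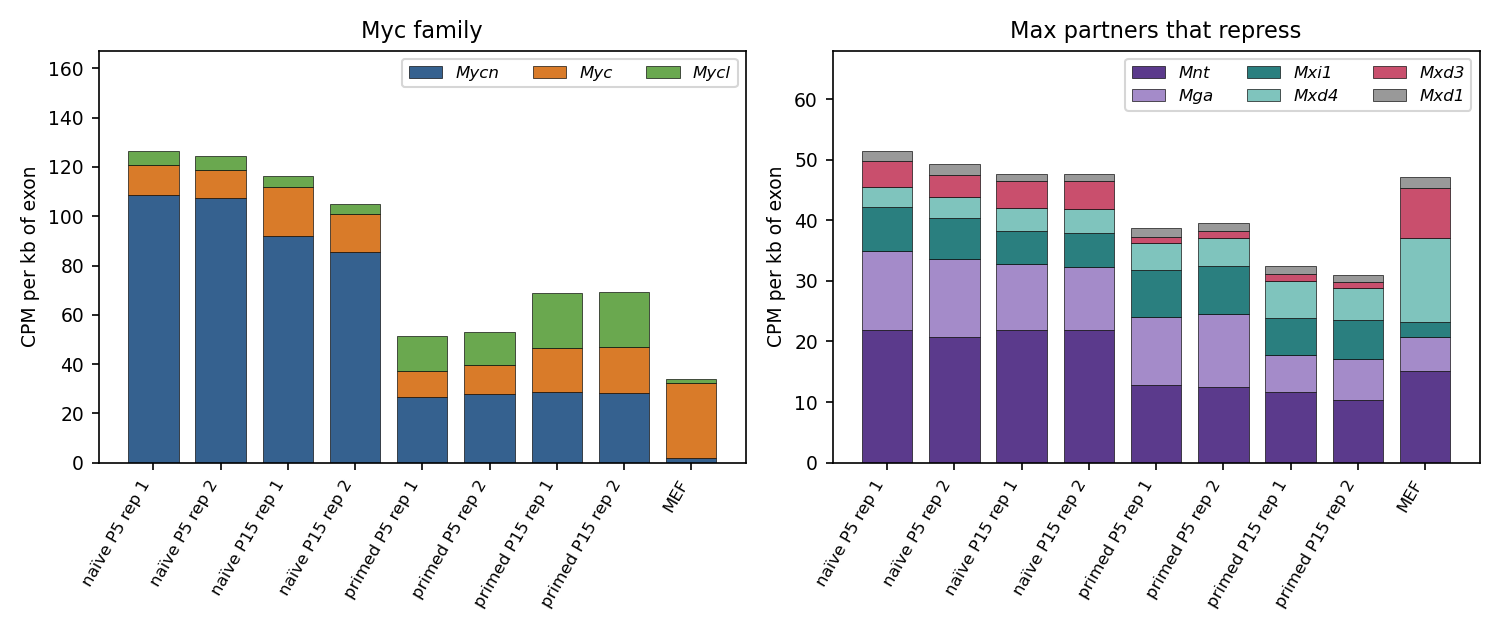
Stacked levels in CPM per kb of exon (vertical axes, starting at 0) of the activators (left) and of the Max partners that repress (right) in each of the 9 libraries (horizontal axes). The activator stack was 105.0 to 126.6 in naïve and 51.4 to 69.4 in primed libraries, with *Mycn* as its largest share in all pluripotent libraries, and MEFs carried mostly *Myc*.

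*Max* (ENSMUSG00000059436, chr12:76937269-76962201, minus strand), is the shared partner. It was at 77.3 and 73.4 CPM in naïve and 56.1 and 56.0 CPM in primed cells at P5, and at 83.2 and 76.9 CPM in naïve and 70.4 and 71.8 CPM in primed cells at P15. MEFs had 75.5 CPM. Primed libraries were below naïve ones at each passage, and the fall passed the test at P5 (-0.40 ± 0.05, adjusted p = 1.54e-07, edgeR). At P15 the value was -0.18 ± 0.07 with an adjusted p of 0.0234. The difference between both effects had an adjusted p of 0.0386, above the threshold. Without naïve P15 replicate 2 the P15 value was -0.27 (adjusted p = 0.00651). RNA of MEF composition would make up 16.4% to 26.7% of *Max* by the median marker ratio and 0.905% to 6.19% by the lowest, and its part was not tested. The family sum was 4.91 to 6.11 times the *Max* level per kb in naïve and 3.30 to 3.53 times in primed libraries.

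*Mga* (ENSMUSG00000033943, chr2:119897228-119969581, plus strand) encodes the large Max partner of the Polycomb-type complex. It was at 200.6 and 199.1 CPM in naïve and 172 and 185 CPM in primed cells at P5. At P15 it was at 168 and 161 CPM in naïve and 94.2 and 104 CPM in primed cells, near the 87.4 CPM of MEFs. The libraries of the states did not overlap at either passage, with the wider gap at P15. *Mga* fell by 0.74 on the log2 scale at P15 (SE 0.07, adjusted p = 2.10e-12, edgeR). At P5 the value was -0.13 ± 0.04 (adjusted p = 0.00491), a call that was lost under several alternatives, such as DESeq2's Wald test (adjusted p = 0.0252) and the fit without primed P5 replicate 1 (-0.06, adjusted p = 0.31), and the sign turned with library size alone (0.07). Under that scaling the median of all genes was 0.21.

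*Mnt* (ENSMUSG00000000282, chr11:74830920-74845725, plus strand), the most abundant repressor per kb in the naïve libraries, encodes a Max partner present in most dividing cells. Naïve libraries had 101.3 and 95.7 CPM at P5 and 101.3 and 101.2 CPM at P15. Primed libraries had 59.5 and 57.5 CPM at P5 and 53.6 and 48.2 CPM at P15, with 69.9 CPM in MEFs. All primed libraries were below all naïve ones. *Mnt* fell by 0.72 on the log2 scale at P5 (SE 0.05, adjusted p = 2.24e-13, edgeR) and was 2.01-fold lower at P15 (95% interval -1.15 to -0.86 on the log2 scale, adjusted p = 7.18e-15). RNA of MEF composition would make up 11.6% to 36.9% of *Mnt* by the median marker ratio and 0.814% to 4.56% by the lowest, and its part was not tested.

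*Mxd3* (ENSMUSG00000021485, chr13:55325168-55329823, minus strand) encodes a repressor that is known to be expressed in S phase of proliferating cells. It was at 10.1 and 8.51 CPM in naïve and 2.14 and 2.83 CPM in primed cells at P5. At P15 it was at 10.4 and 11.1 CPM in naïve and 2.70 and 2.10 CPM in primed cells, with 19.9 CPM in MEFs. Primed libraries held 37 to 51 counts each and were all below the naïve ones. *Mxd3* fell by 1.88 at P5 (SE 0.19, adjusted p = 5.29e-10, edgeR) and by 2.17 at P15 (SE 0.21, adjusted p = 1.97e-11) on the log2 scale. By the median marker ratio, RNA of MEF composition would amount to 33.1% to 240% of *Mxd3*, which is above its whole level in every primed library. By the lowest ratio, which such RNA cannot exceed, it would be 4.71% to 22.3%. Feeder RNA of another composition is not bounded in this way, and its part in *Mxd3* was not tested. The gene shares exonic bases with *Prelid1* on the other strand, and whether the counting used strand is not given in the sources used here.

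*Mxd4* (ENSMUSG00000037235, chr5:34173883-34187720, minus strand) encodes the Mxd repressor linked to cells that leave the cycle. Naïve libraries had 28.0 and 28.7 CPM at P5 and 31.7 and 33.6 CPM at P15. Primed libraries had 38.1 and 38.8 CPM at P5 and 52.5 and 45.6 CPM at P15, and MEFs had 117 CPM. Primed libraries were above naïve ones at each passage. *Mxd4* rose by 0.47 ± 0.07 at P5 (adjusted p = 1.22e-06, edgeR) and by 0.58 ± 0.09 at P15 (adjusted p = 6.22e-07). With the scaled MEF profile subtracted from every library the values were 1.31 and 0.98. That subtraction used the median marker ratio, which overstates feeder RNA, so these values are not estimates of the change in the pluripotent cells alone. RNA of MEF composition would be 44.2% to 70.2% of *Mxd4* by the median and 2.03% to 24.5% by the lowest marker ratio, and its part was not tested. An antisense gene, *Gm42846*, overlaps its exons.

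*Mxi1* (ENSMUSG00000025025, chr19:53310518-53375810, plus strand), an Mxd repressor also known as Mad2, was at 49.1 and 46.1 CPM in naïve and 52.7 and 54.9 CPM in primed cells at P5. At P15 it was at 37.3 and 37.5 CPM in naïve and 41.5 and 43.1 CPM in primed cells, against 16.2 CPM in MEFs. The libraries did not overlap at either passage, yet the steps were small. The rise passed the test at P5 (0.21 ± 0.06, adjusted p = 0.00314, edgeR). That call was lost in 6 of 12 alternatives, among them DESeq2's Wald test (adjusted p = 0.0491) and the fit without naïve P5 replicate 2 (0.14). The value at P15 was 0.17 ± 0.08 (adjusted p = 0.0786, edgeR), and with library size alone it was 0.27 and passed the threshold (adjusted p = 0.00606). Its exons overlap the opposite-strand gene *Gm10197*.

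*Mxd1* (ENSMUSG00000001156, chr6:86647042-86669161, minus strand), a repressor known for its rise in differentiating blood and epithelial cells, was among the lowest members per kb. It was at 12.5 and 13.7 CPM in naïve and 11.03 and 9.37 CPM in primed cells at P5, and at 8.84 and 8.44 CPM in naïve and 9.01 and 8.18 CPM in primed cells at P15. MEFs had 12.5 CPM. The states overlapped at P15, and no call was made at either passage, with values of -0.33 ± 0.12 (adjusted p = 0.0203, edgeR) at P5 and -0.02 (95% interval -0.35 to 0.32) at P15. At P5 the value passed the threshold without naïve P5 replicate 1 (-0.42, adjusted p = 0.00801), whereas it was -0.19 (adjusted p = 0.268) without primed P5 replicate 2 and -0.12 (adjusted p = 0.378) with library size alone.

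Of the 9 members with a promoter in the table, *Max*, *Mxd4* and *Mnt* were the 3 with the Max-binding E-box CACGTG in their promoter, which is why these promoters are shown, with the E-box in capitals. The motif reads the same on both strands and was present in 7.15% of all promoters.
*Max* promoter, chr12:76962199-76962498, minus strand: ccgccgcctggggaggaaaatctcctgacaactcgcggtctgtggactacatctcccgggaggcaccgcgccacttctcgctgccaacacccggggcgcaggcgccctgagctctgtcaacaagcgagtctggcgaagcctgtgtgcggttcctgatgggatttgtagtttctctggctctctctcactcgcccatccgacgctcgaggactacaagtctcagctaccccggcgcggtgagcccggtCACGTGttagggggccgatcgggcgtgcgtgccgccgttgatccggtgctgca
*Mxd4* promoter, chr5:34187661-34187960, minus strand: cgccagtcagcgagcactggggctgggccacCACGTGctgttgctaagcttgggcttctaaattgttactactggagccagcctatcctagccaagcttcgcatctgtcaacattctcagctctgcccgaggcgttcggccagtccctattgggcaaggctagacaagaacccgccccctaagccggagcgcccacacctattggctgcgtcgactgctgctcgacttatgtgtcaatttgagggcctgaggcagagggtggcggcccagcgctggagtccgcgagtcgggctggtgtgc
*Mnt* promoter, chr11:74830674-74830973, plus strand: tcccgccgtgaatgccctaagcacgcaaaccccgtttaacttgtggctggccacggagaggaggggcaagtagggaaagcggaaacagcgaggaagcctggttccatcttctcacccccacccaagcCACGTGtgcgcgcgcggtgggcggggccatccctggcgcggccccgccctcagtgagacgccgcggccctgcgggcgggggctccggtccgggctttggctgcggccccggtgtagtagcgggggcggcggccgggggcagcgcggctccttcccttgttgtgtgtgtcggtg
The E-box began 3 bases before the start in *Max*, 219 bases before it in *Mxd4* and 123 bases before it in *Mnt*. These 3 genes did not move together, since *Mxd4* rose and *Mnt* fell in primed cells at both passages.

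The balance of the summed activators to the summed repressors, in CPM per kb, was 2.46 and 2.53 in naïve and 1.33 and 1.34 in primed libraries at P5. At P15 it was 2.44 and 2.20 in naïve and 2.13 and 2.25 in primed libraries, which overlapped, and 0.722 in MEFs. Against the 4 *Mxd* genes alone, without *Mga* and *Mnt*, the activators stood at 7.66 and 7.95 in naïve and 3.50 in each primed library at P5, and at 7.85 and 6.86 against 4.70 and 5.05 at P15, without overlap. The repressor sum fell from 51.5 and 49.3 in naïve to 38.8 and 39.6 in primed libraries at P5, and from 47.7 in each naïve library to 32.4 and 30.9 at P15. *Mnt* to *Max* was 1.02 and 1.01 in naïve and 0.826 and 0.798 in primed cells at P5, and 0.946 and 1.02 against 0.592 and 0.522 at P15. Ratios of transcripts say nothing of protein levels, and no test was run on them.

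The next question was how the members changed with passage within each state. These comparisons share their libraries with those above. In naïve cells 6 members were called between P5 and P15, when 9.22% of all 15683 genes were called. The call was higher for 1 member, against 4.21% of all genes, and lower for 5, against 5.01%, and none reached a fold of 2, against 1.13%. *Myc* rose by 0.59 ± 0.10 on the log2 scale (adjusted p = 0.00174, edgeR). The summed fibroblast markers went from 10010 and 10069 CPM at P5 to 16547 and 17397 CPM at P15 in the same libraries. With the MEF profile subtracted the *Myc* value was 0.91 (adjusted p = 0.00848, edgeR). That subtraction used the median marker ratio, which overstates feeder RNA and was 16.8% and 17.0% at P5 and 18.7% and 18.6% at P15. It did not follow the rise of the summed markers, so the part of feeder RNA in the *Myc* rise was not tested. *Mycn* fell by 0.29 (SE 0.05, adjusted p = 9.40e-04), *Mga* by 0.28 (SE 0.05, adjusted p = 9.72e-04), *Mxi1* by 0.35 (SE 0.07, adjusted p = 0.00399), *Mxd1* by 0.60 (SE 0.13, adjusted p = 0.00648) and *Mycl* by 0.41 (SE 0.10, adjusted p = 0.00973). The count of 6 was 3 with DESeq2's Wald test and with either naïve P15 library left out, and 1 without the low-count filter, where only *Mga* was called. The *Mycl* call was lost in 8 of 11 alternatives, among them DESeq2's size factors (adjusted p = 0.0102, edgeR) and its Wald test (adjusted p = 0.0514). The calls of *Mxd1* and *Mxi1* were each lost in 6 of 11, that of *Mycn* in 2, *Myc* in 1 and *Mga* in 0. *Max*, *Mxd3*, *Mxd4* and *Mnt* were not called, with values of 0.09, 0.21, 0.20 and 0.04.

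In primed cells 7 members were called between the passages, 4 higher and 3 lower, with a background of 47.1% of 15957 genes, and none past a fold of 2, with a background of 11.6%. *Mycl* rose by 0.67 ± 0.06 (adjusted p = 4.07e-10, edgeR), *Myc* by 0.67 ± 0.08 (adjusted p = 2.82e-08), *Max* by 0.31 ± 0.06 (adjusted p = 1.24e-04) and *Mxd4* by 0.32 ± 0.08 (adjusted p = 9.34e-04). *Mga* fell by 0.88 (SE 0.06, adjusted p = 5.96e-13), the largest passage change of any member. *Mxi1* fell by 0.38 (SE 0.07, adjusted p = 4.75e-05) and *Mnt* by 0.23 (SE 0.07, adjusted p = 0.00543). The *Mnt* call was lost under 4 alternatives, among them DESeq2's Wald test (adjusted p = 0.0317) and the fit without primed P15 replicate 2 (-0.15, adjusted p = 0.0657), and that of *Mxi1* with the MEF profile subtracted (-0.27, adjusted p = 0.014). The *Mycn* value was 0.04 (95% interval -0.08 to 0.16). The value of *Mxd4* was 0.05 (adjusted p = 0.825) after subtraction of the MEF profile, and the median fibroblast marker ratio was 14.6% and 15.1% in primed libraries at P5 and 24.9% and 25.4% at P15. With library size alone the calls of *Max* and *Mxd4* were lost (adjusted p = 0.0155 and 0.0397), and the median of all genes moved to -0.13.

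**Figure D4:**
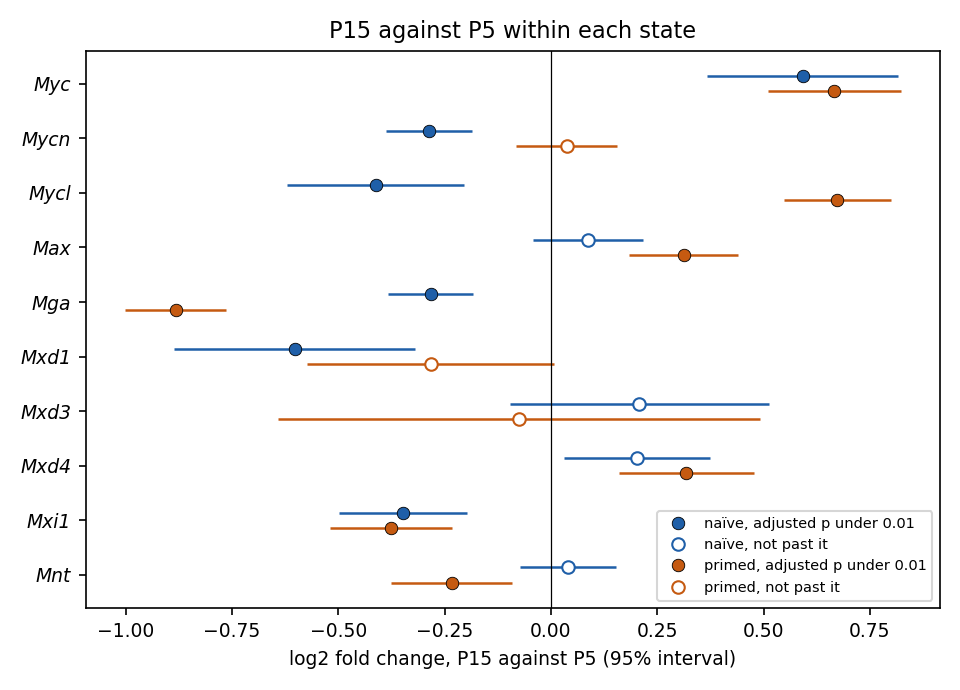
log2 fold change of P15 against P5 (horizontal axis) for each network gene (vertical axis) in naïve (blue) and primed (orange) cells. Points are edgeR estimates from 2 libraries per passage, bars 95% intervals, and filled points have an adjusted p under 0.01. *Myc* rose in both states (0.59 and 0.67), *Mycl* fell by 0.41 in naïve and rose by 0.67 in primed cells, and *Mga* fell furthest in primed cells, by 0.88. The naïve *Mycl* call was lost in 8 of 11 alternatives.

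The difference of the primed to naïve effect between P15 and P5 was tested directly in 1 fit of the 8 libraries. It was called for 3 members, with a background of 24.1% of 16926 genes, and past a fold of 2 for *Mycl*, with a background of 7.16%. The *Mycl* effect was larger at P15 by 1.09 ± 0.11 on the log2 scale (adjusted p = 1.28e-09, edgeR). The *Mga* effect was more negative at P15, with a difference of -0.59 ± 0.08 (adjusted p = 2.15e-07). The *Mycn* effect was smaller at P15, with a difference of 0.33 ± 0.07 (adjusted p = 4.46e-04), a call lost without primed P5 replicate 1 (0.27, adjusted p = 0.0222) and with library size alone (0.22, adjusted p = 0.017). For *Mnt* the difference was -0.27 with an adjusted p of 0.0172, and for *Mxd3* it was -0.27 with a 95% interval from -0.87 to 0.32.

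Across the 5 groups, the order of *Mycn* was naïve P5, naïve P15, primed P15, primed P5 and MEF, of which the neighbouring primed groups were not called different. The order of *Mycl* was primed P15, primed P5, naïve P5, naïve P15 and MEF, and each neighbouring pair of pluripotent groups that was compared was called. The *Mycl* call between the naïve groups was lost in 8 of 11 alternatives. *Myc* was highest in MEFs, followed by both P15 groups, which overlapped, and both P5 groups, which overlapped too. MEFs also held the highest *Mxd4* and *Mxd3*, and the lowest *Mycn*, *Mycl*, *Mga* and *Mxi1*, of all 9 libraries.

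Among 10001 genes with a mean of at least 10 CPM, those most like *Mycn* over the 8 pluripotent libraries were *Brd2*, *Klf4* and *Wdr5*, with Pearson's r of log2(CPM + 1) of 0.999, 0.999 and 0.998. *Klf4*, a transcription factor of naïve pluripotency, was at 761 and 543 CPM in naïve and 47.9 and 53.9 CPM in primed cells at P5 and P15. *Mycl* was most like *Cxxc5*, *Il13ra1* and *Sod3*, each with r = 0.999. *Myc* was most like *1110038F14Rik*, *Mdp1* and *Txndc17*, with r of 0.996, 0.982 and 0.981. These values describe 8 libraries in 4 groups that all genes share.

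Other genes of the wider network were described from lists. Of 5 genes of the Mlx branch, which pairs Max-like Mlx with glucose-sensing partners, and of Myc-related loci, 4 were tested. At P5 1 was higher (background 31.2% of genes higher) and 1 lower (background 31.1%), and at P15 2 were higher and 0 lower (backgrounds 28.2% and 28.4%). *Mlxip* (MondoA) rose by 0.42 ± 0.06 at P5 and 0.51 ± 0.08 at P15 (adjusted p = 3.90e-07 and 7.19e-07, edgeR). *Mlxipl* (ChREBP) went from 3.23 CPM in naïve to 3.20 CPM in primed cells at P5 and from 1.89 to 3.85 CPM at P15, where it rose by 1.02 ± 0.29 (adjusted p = 0.00217). The difference between both effects was 1.02 ± 0.37 with an adjusted p of 0.029 (edgeR), above the threshold. *Mlx* fell by 0.29 at P5 (SE 0.09, adjusted p = 0.00352) and was not called at P15 (-0.16). *Bmyc* was not called (0.10 and 0.46), and *Mycs* held 0 counts in every library, which leaves an expected count of up to 3 in each possible.

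Of 13 partners of the Mga complex, 3 passed as higher and 9 as lower in primed cells at P5 (backgrounds 31.2% and 31.1%), and 4 and 8 at P15 (28.2% and 28.4%), with medians of -0.25 and -0.44 beside 0.01 and 0.00 over all genes. With library size alone the split at P5 was 4 and 6. *L3mbtl2*, its chromatin-compacting subunit, fell from 99.8 ± 3.96 to 45.1 ± 0.834 CPM (SD, n = 2) at P5 and from 105 ± 0.257 to 51.4 ± 2.26 CPM at P15. *Rybp* fell by 0.82 and 0.88 on the log2 scale and *Wdr5*, a subunit shared with histone methyltransferases, by 0.94 and 0.81. The homologue of *Rybp*, *Yaf2*, rose by 1.02 ± 0.08 and 0.77 ± 0.10, and the ubiquitin ligase gene *Ring1* by 0.45 and 0.65.

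Of 16 genes of the Sin3 and HDAC corepressor, 2 were higher and 10 lower at P5, and 4 and 8 at P15, with the same backgrounds and medians of -0.34 and -0.24 beside 0.01 and 0.00 over all genes. With library size alone the split at P5 was 5 and 6. The scaffold *Sin3b* rose from 83.0 ± 0.609 to 117 ± 2.79 CPM at P5 and from 84.4 ± 1.56 to 129.8 ± 0.765 CPM at P15. *Suds3* rose by 0.22 and 0.29. *Sap30* fell by 1.19 and 0.80, the deacetylase *Hdac1* by 0.60 and 0.47, and *Arid4a* by 0.37 and 0.92, while *Brms1* was called only at P15 (0.38 ± 0.10).

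Of 24 cofactors and turnover genes of Myc, 3 were higher and 17 lower at P5 (backgrounds 31.2% and 31.1%), and 3 and 13 at P15 (28.2% and 28.4%), with medians of -0.48 and -0.21 beside 0.01 and 0.00 over all genes. With library size alone the splits were 6 and 15 at P5 and 6 and 8 at P15. *Usp28*, a deubiquitinase known to stabilise c-Myc, fell from 185 ± 7.38 to 79.3 ± 7.86 CPM at P5 and from 131 ± 2.25 to 44.7 ± 1.90 CPM at P15. *Pim1*, a kinase gene known as a target of LIF and Stat3, fell by 0.81 at P5 and by 2.06 at P15. *Gsk3b*, whose kinase marks c-Myc for degradation, rose by 0.43 and 0.25. *Zbtb17* (Miz1) rose by 0.28 at P5 and had a value of 0.16 at P15 that was not called.

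A list of 60 genes of the nucleolus and of biosynthesis, known as Myc targets, held 59 tested genes. At P5 0 passed as higher and 56 as lower in the primed state, against backgrounds of 31.2% and 31.1%, with a median of -0.80 beside 0.01 over all genes. At P15 2 were higher and 44 lower, against backgrounds of 28.2% and 28.4%, with a median of -0.45 beside 0.00. The count past a fold of 2 was 16 at P5, against 22.3% of all genes, and 2 at P15, against 23.2%. *Tfrc*, the transferrin receptor, fell from 287 ± 7.47 to 81.8 ± 2.36 CPM at P5 and from 278 ± 6.32 to 82.0 ± 3.13 CPM at P15. *Rrp9*, of the nucleolar U3 particle, fell from 128 ± 3.83 to 46.8 ± 0.0405 CPM and from 149 ± 5.20 to 74.8 ± 2.96 CPM. The 2 genes higher at P15 were *Ldha*, lactate dehydrogenase A, with values of -0.50 at P5 and 0.31 at P15, and *Cdk4*, with -0.33 and 0.19. Between the passages the primed to naïve difference was higher at P15 for 41 of the 59 genes and lower for 1, with backgrounds of 13.3% and 10.8%. Within primed cells 51 rose from P5 to P15 and 1 fell, with backgrounds of 24.3% and 22.8%, a median of 0.46 beside 0.00. Which member controls these genes was not tested.

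**Figure D5:**
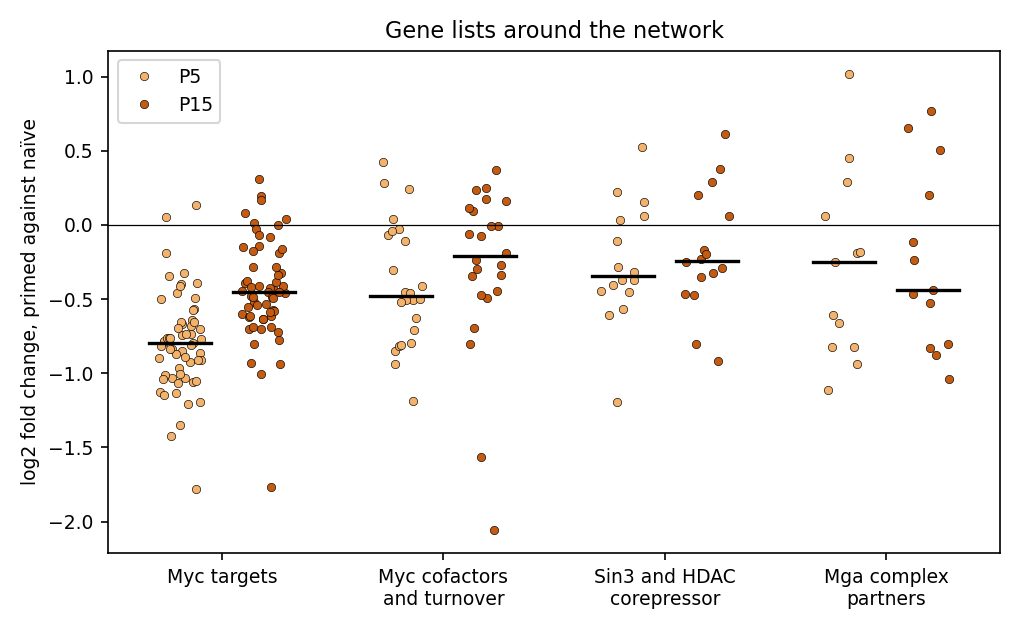
log2 fold change of primed against naïve cells (vertical axis) for the tested genes of 4 lists (horizontal axis) at P5 (light) and P15 (dark). Each point is a gene and each line a list's median, which for Myc targets was -0.80 at P5 and -0.45 at P15.

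Of 20 germline and meiotic genes known to be held down by Max and Mga, most passed the low-count filter through their naïve levels, so that counts of calls would say little and levels are given. At least 10 counts in each library were held by 19 of the 20 in naïve cells at either passage, by 13 in primed cells at P5 and by 4 in primed cells at P15. At most 3 counts in each library were held by 0 genes in naïve cells, by 1 in primed cells at P5 and by 13 in primed cells at P15. The summed level was 191.6 ± 0.396 and 192.6 ± 8.30 CPM in naïve cells at P5 and P15, and 61.9 ± 2.55 and 39.0 ± 3.64 CPM in primed cells. Of these sums, *Tdrkh* alone made up 9.225 and 12.24 CPM in naïve cells and 16.09 and 31.28 CPM in primed cells. The median over the 20 genes was 7.985 and 8.055 CPM in naïve cells and 1.466 and 0.0572 CPM in primed cells. *Stra8*, a gene of entry into meiosis, had 166 and 163 counts in naïve and 7 and 2 in primed libraries at P5, and 113 and 124 against 0 and 0 at P15. *Mael*, of the piRNA pathway, had 249 and 272 counts against 34 and 31 at P5, and 212 and 205 against 0 and 1 at P15, and *Tex11* 117 and 125 against 7 and 7, and 90 and 89 against 1 and 0. The exception was *Tdrkh*, which rose by 0.83 ± 0.12 at P5 and 1.34 ± 0.12 at P15 (adjusted p = 5.95e-07 and 9.76e-13, edgeR).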

How the data were processed

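Per the labels and the study's methods, poly(A) RNA was made into NEBNext Ultra libraries and sequenced on an Illumina HiSeq, and the authors trimmed reads with Cutadapt, aligned them with HISAT2 to mm10 and used featureCounts on an Ensembl annotation. The authors deposited raw counts of reads for each gene. The annotation release and the strand and multi-mapping settings are not given in the sources used here. DESeq2 is named in the submitters' processing notes.

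Symbols, positions and merged exon lengths came from GENCODE M21 (GRCm38). The members and lists were chosen with earlier results of these data known. Genes with at least 10 counts in at least 2 libraries of a comparison were tested with edgeR 4.0.16 (R 4.3.3, glmQLFit and glmQLFTest, TMM), using only the 4 libraries of a comparison and all 8 for the difference between passages, and called at a Benjamini-Hochberg adjusted p under 0.01. Standard errors were the fold change divided by the square root of F. The fit was tested on simulated data. Levels, tables and figures used Python 3.11.15, pandas 2.3.3 and matplotlib 3.10.9. The 92 spike-in rows held 0 counts, and 153 rows had no symbol.

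Named were all members, the members of lists of up to 6 genes, and of other lists the 2 called genes with the largest rise and fall at each passage. For the activators the 3 most similar genes were named. A gene that this rule names is not reported here, but is counted in its list. The biological coefficient of variation was 3.26% at P5 and 4.79% at P15. Alternatives were other normalizations, no low-count filter, DESeq2 1.42.0, a block for the replicate number, a fit of all 8 libraries, subtraction of the MEF profile scaled to the median marker ratio, and leaving out each library. In the last, the lone library of a group was assumed to vary like the others.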

Additional observations from a re-analysis of the deposited data

Results flagged for a closer look

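The primed to naïve effect differed between P15 and P5 (edgeR, adjusted p under 0.01) for 3 members, by 0.33 on the log2 scale for *Mycn*, by 1.09 for *Mycl* and by -0.59 for *Mga*. Of the genes named from the lists, it differed by 0.40 for *Sap30*, by -0.53 for *Arid4a*, by 0.51 for *Brms1*, by -0.36 for *Usp28*, by -1.24 for *Pim1*, by 0.44 for *Rrp9*, by 0.83 for *Ldha* and by 0.54 for *Cdk4*. The germline list was left out of this comparison as a whole. Most of its genes held at most 3 counts in each primed P15 library, where fitted folds depend on the prior count. *Tdrkh*, which was left out with the list, had a difference of 0.53 with an adjusted p of 0.0141 (edgeR), above the threshold. With 2 libraries per group, no library could be tested for standing apart from its group.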

How the results depend on the processing

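Of 599 values of the 50 member results under alternatives, 524 kept their direction and side of the threshold, 47 lost the call, 7 gained it and 21 changed sign. The sign changed for *Myc* at P5 (0.1789 with library size alone, 0.0594 with feeder RNA subtracted, and -0.0912 to 0.0542 with a library left out, positive without primed P5 replicate 1), at P15 (-0.0582 with feeder RNA subtracted, and -0.1645 to 0.2105 with a library left out, negative without naïve P15 replicate 2) and in the difference between passages (-0.0321 with library size alone, -0.0915 with feeder RNA subtracted, and -0.0969 to 0.2711 with a library left out). It changed with library size alone for *Mga* at P5 (0.072) and *Mxd1* at P15 (0.0877), and *Mxd1* at P15 was -0.0786 to 0.0795 with a library left out. In the difference between passages it changed for *Mxi1* (0.0043 without the low-count filter, 0.0857 with feeder RNA subtracted, and -0.078 to 0.0343 with a library left out, with 0.0082 without primed P15 replicate 1) and for *Mxd4* (-0.3084 with feeder RNA subtracted). With a library left out, *Mnt* between naïve passages was -0.0046 to 0.0777, and between primed passages *Mycn* was -0.0204 to 0.0549 (-0.094 with library size alone) and *Mxd3* -0.2912 to 0.113. None of these 21 had passed the threshold apart from *Mga* at P5. The 6 members called between naïve passages were 1 without the low-count filter, 3 with the DESeq2 Wald test, 2 with feeder RNA subtracted and 3 to 4 with a library left out. The 2 genes of the Mlx list called at P5 were 1 with library size alone, without the filter and with the DESeq2 Wald test, and 1 to 2 with a library left out. At P15 they were 1 with the DESeq2 Wald test and with feeder RNA subtracted, and 1 to 2 with a library left out, and 5 to 19 genes of the germline list were called with a library left out, 5 without either naïve P15 library. With 1 naïve P15 library left, a gene passed the low-count filter only with at least 10 counts in a primed P15 library. Of the germline list only *Sycp1*, *Tdrkh*, *Stag3*, *Zcwpw1* and *Tex15* had that. The count of 5 was therefore set by the filter and says nothing about the other germline genes. The causes of the other changes were not tested. With feeder RNA subtracted, *Mxd3* in primed cells was left with almost no counts (-9.86 at P5 and -9.76 at P15), and its passage change in primed cells could not be tested. With library size alone the split of all calls moved from 2243 higher and 1836 lower to 1406 and 2578 for the difference between passages, and from 3874 and 3644 to 2556 and 4902 between primed passages.

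Libraries with the same replicate number deviated together with correlations of -0.12 at P5, -0.17 at P15 and 0.15 in either state between passages. These were taken over 10001 genes, and whether such libraries shared more than a number was not tested. With a replicate block all 50 member values kept their call, and 8 members were called at P5, 6 at P15, 3 for the difference, 6 between naïve and 7 between primed passages. The block raised calls over all genes between naïve passages from 1446 to 2783 and between primed passages from 7518 to 8312. It lowered them from 10275 to 10225 at P5, from 8899 to 7828 at P15 and from 4079 to 3738 for the difference. With the pairs crossed, an alternative chosen after seeing the data, 9 members were called at P5 and 7 at P15. With 37 to 51 counts of *Mxd3* per primed library, its passage change had an interval of -0.64 to 0.49.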
